A study of Mus musculus with 6 samples.

Results

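The genes of platelets and of megakaryocytes, the large cells that shed them, were measured in 2 sorted cell populations of the embryonic mouse head. The 10 genes were Pf4, Ppbp, Gp1ba, Gp1bb, Gp5, Gp6, Gp9, Treml1, Tubb1 and Vwf. They were chosen by symbol, and because several of them led the mesoderm side of the comparison described here, so their own differences are given as a description with no test. A probe was listed for 9 of the 10, with 13 probes in all, out of 19057 genes with a probe. Gp1ba had no probe in the probe table and was not analysed here.

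The study compared 3 arrays of cranial mesoderm with 3 arrays of cranial neural crest, all from embryos at E9.5 of the strain mix C57Bl/6 x 129 x ARC/s. The mesoderm cells carried Mesp1-Cre and the Z/EG reporter, and the crest cells carried Wnt1-Cre and the same reporter. Z/EG switches on GFP in any cell that has had Cre and in its descendants, and GFP-positive cells were taken by flow sorting, so both groups shared the reporter and the sort and differed in the Cre line. Mesp1 is active in early mesoderm, which also gives rise to blood vessels and blood cells, and Wnt1 is active in the dorsal neural tube as well as in crest, so neither sort was limited to connective tissue precursors of the head. Replicates were isolated independently of each other. RNA was amplified before hybridization to Illumina mouse WG v2.0 arrays, and the number of arrays limits the precision of every value.

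Platelets are cell fragments that close wounds. They bind collagen and the large plasma protein encoded by Vwf, change shape, and release chemokines and growth factors stored in granules. In the mouse embryo the first megakaryocyte precursors arise in the yolk sac, beside the first red cells and macrophages, and reach the embryo through the circulation. Their genes are known targets of the factors GATA1, which binds DNA at GATA motifs, FLI1 and other ETS factors, which bind around GGAA, and NFE2.

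Promoter sequence from RefSeq (GRCm38.p6) was matched by symbol for 9 of the 10 genes, all but Vwf. The 250 bases before the start of the matched promoter entry were searched on both strands. For Gp1ba and Gp6 this window ran partly into the annotated gene interval, and for Gp9 it lay wholly within it. Sequences are shown for 4 genes whose levels in mesoderm stood far above or barely above background, written 5′ to 3′ along the gene's own strand. Capitals mark GATAA or its reverse complement TTATC, and GGAA or its reverse complement TTCC. Pf4 and Ppbp are neighbouring chemokine genes, Gp5 held GATAA on the opposite strand at 93 and 77 bases before its start, and Tubb1 held GGAA without GATAA.
Pf4, chr5:90772185-90772434, plus strand: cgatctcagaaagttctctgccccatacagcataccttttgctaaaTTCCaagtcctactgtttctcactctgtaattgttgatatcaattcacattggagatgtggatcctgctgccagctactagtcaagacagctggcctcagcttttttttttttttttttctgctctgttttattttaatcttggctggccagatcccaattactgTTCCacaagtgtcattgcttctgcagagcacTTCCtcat
Ppbp, chr5:90768268-90768517, plus strand: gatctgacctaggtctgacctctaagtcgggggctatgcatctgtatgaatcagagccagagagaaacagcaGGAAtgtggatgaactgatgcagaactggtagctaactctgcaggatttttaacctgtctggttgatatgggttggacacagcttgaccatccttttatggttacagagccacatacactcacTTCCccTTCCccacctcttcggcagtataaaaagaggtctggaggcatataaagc
Gp5, chr16:30310782-30311031, minus strand: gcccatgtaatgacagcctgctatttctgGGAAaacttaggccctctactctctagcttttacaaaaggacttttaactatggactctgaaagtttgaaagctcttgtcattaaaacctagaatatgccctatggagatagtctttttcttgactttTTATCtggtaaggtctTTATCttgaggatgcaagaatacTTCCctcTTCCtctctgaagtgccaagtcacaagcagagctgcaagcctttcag
Tubb1, chr2:174450345-174450594, plus strand: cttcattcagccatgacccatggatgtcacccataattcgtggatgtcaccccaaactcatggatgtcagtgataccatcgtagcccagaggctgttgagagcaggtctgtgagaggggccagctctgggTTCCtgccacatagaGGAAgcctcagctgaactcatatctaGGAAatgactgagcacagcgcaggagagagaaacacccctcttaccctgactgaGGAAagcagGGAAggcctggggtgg

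GATAA was present in 4 of the 9 promoters, those of Gp1ba, Gp5, Gp6 and Gp9, and in 23% of 27025 mouse promoters of the same length. GGAA was present in 9 of 9, against 93.4% of all promoters, so nearly any promoter held it. All 4 promoters with GATAA also held GGAA, a pair found in 21.4% of all promoters, and matches of the motifs shared no letters. TGAGTCA, the core letters bound by NFE2, was in 0 of 9 and in 4.43% of all promoters. These matches describe letters in this window and were not tested as binding sites.

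Across the series, 9214 genes passed the detection filter, which asked for a detection p under 0.05 on at least 3 of the 6 arrays. At an adjusted p under 0.05 (limma), 935 genes (10.1%) were higher in mesoderm and 766 genes (8.31%) were lower, with a median difference of -0.07 on the log2 scale over all genes. With arrays scaled to a common median in place of quantile normalization, 595 were higher and 729 lower, around a median of -0.30. Between 30.8% and 32.6% of probes were detected on the mesoderm arrays, and between 32.0% and 34.1% on the crest arrays. Arrays correlated at 0.9705 to 0.9813 within mesoderm, at 0.9784 to 0.9909 within crest, and at 0.9267 to 0.9635 between the groups. Markers went with the labels: 7 of 7 head mesoderm genes tested were higher in mesoderm, and 12 of 13 crest and neural tube genes tested were lower. The listed Meox1, Musk and Pax3 were detected on no array. Some markers, among them Tbx1 and Wnt1, passed the filter through 1 group alone. The lists were chosen with earlier results of these data known, so these counts do not test the labels. All 6 arrays lay on 1 chip with the groups at separate positions, so chip position and group cannot be told apart.

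All 9 measured platelet and megakaryocyte genes were detected on each of the 3 mesoderm arrays and on none of the 3 crest arrays. This pattern was found in 1.51% of 19047 genes with a usable probe. For each of the 9 genes, every mesoderm array lay above every crest array, as it did for 17.6% of the genes tested. The median difference over the 9 genes was 5.37 on the log2 scale. With the crest side raised to the lowest detected signal of each array, it was 5.08. Since the genes were chosen from this contrast and passed the filter through the mesoderm arrays alone, nothing is read from these counts. In sorted bulk cells, fewer cells of a kind and less RNA per cell cannot be told apart.

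**Figure D1:**
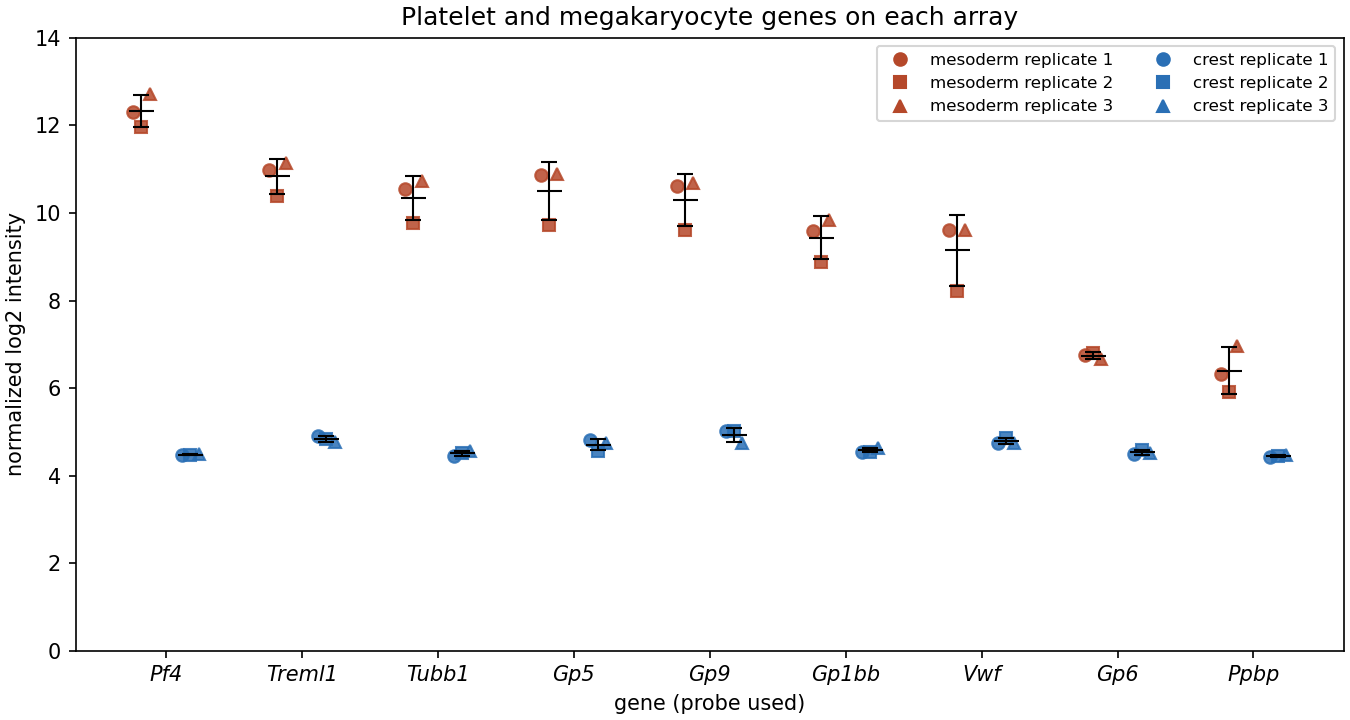
Normalized log2 intensity (vertical axis) of the probe used for each of the 9 genes, with mesoderm arrays in red left of crest arrays in blue, marker shapes for replicates, and bars for the mean ± SD (n = 3 each). The mesoderm points lie at 5.90 or above and the crest points at 5.03 or below, and levels of different probes are not comparable with each other.

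Pf4 encodes platelet factor 4 (CXCL4), a chemokine stored in platelet alpha granules. It lies on chromosome 5 (GRCm38.p6, 90772435 to 90773383), and its probe targets NM_019932. Its deposited signals were 3284, 5461 and 6335 in mesoderm replicates 1 to 3, against 103.8, 109.1 and 97.8 in crest replicates 1 to 3. The crest signals were at the level of the arrays' background, which averaged 97.0 to 123.6 over the mesoderm arrays and 104.9 to 121.7 over the crest arrays. After background correction and normalization Pf4 averaged 12.33 ± 0.37 in mesoderm and 4.47 ± 0.01 in crest (log2, SD, n = 3 each). The fitted difference was 7.86. A gene not detected in crest has only a bound there, so folds are given as bounds, computed against the higher of each crest array's lowest detected level and its own level. Pf4 was at least 138.1-fold higher in mesoderm.

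Ppbp, the gene of another alpha granule chemokine, pro-platelet basic protein (CXCL7), ends 2371 bases before the start of Pf4 (chromosome 5, 90768518 to 90770063). Its brighter probe (NM_023785) read 133.8, 187.6 and 185.4 in mesoderm, against 100.4, 108.7 and 96.4 in crest. The groups did not overlap, but the lowest mesoderm signal was only 1.23 times the highest crest signal. It averaged 6.40 ± 0.53 in mesoderm and 4.45 ± 0.02 in crest (log2, SD, n = 3 each), at least 2.26-fold higher in mesoderm. The other Ppbp probe read 112.0, 154.2 and 120.4 in mesoderm, against 103.8, 110.0 and 111.0 in crest. It was detected on 1 mesoderm array and had a log2 difference of 0.69. The deposited detection p-values of the 2 Ppbp probes fitted each other's signals rather than their own. Which signals belong to which of the 2 probes is therefore not settled.

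Gp1ba, Gp1bb, Gp5 and Gp9 encode the subunits of the GPIb-IX-V complex, the platelet receptor for the product of Vwf. Gp1bb, which encodes the beta chain of GPIb (chromosome 16, 18620319 to 18622403), had signals of 502.9, 757.1 and 851.9 in mesoderm, against 109.6, 115.7 and 104.7 in crest. Its probe (NM_001001999) averaged 9.43 ± 0.49 in mesoderm and 4.57 ± 0.05 in crest (log2, SD, n = 3 each), at least 18.5-fold higher in mesoderm. Gp5, whose product is the GPV subunit (chromosome 16, 30307685 to 30310781, NM_008148), had signals of 1153, 1279 and 1779 in mesoderm, against 123.2, 117.2 and 109.1 in crest. The lowest mesoderm signal of Gp5 was 9.36 times its highest crest signal, and its level was at least 38.9-fold higher in mesoderm. Gp9, for the GPIX subunit (chromosome 6, 87776131 to 87779786, NM_018762), had signals of 961.3, 1197 and 1517 in mesoderm, against 131.4, 143.1 and 109.1 in crest. Gp9 was at least 33.9-fold higher in mesoderm.

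The annotated interval of Gp1bb overlaps Septin5, which encodes a septin cytoskeletal protein. Septin5 did not share the pattern of Gp1bb. One of its probes was detected on all 6 arrays, at 6.06, 6.64 and 5.87 in mesoderm, against 6.20, 5.89 and 6.40 in crest (log2). The groups overlapped, with a difference of 0.03. The other Septin5 probe was detected on no array.

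Gp6 encodes GPVI, the platelet collagen receptor that signals through the Fc receptor gamma chain (chromosome 7, 4362853 to 4397851, NM_001163014). Its signals were 149.1, 262.1 and 169.2 in mesoderm, against 105.9, 119.0 and 99.6 in crest. It averaged 6.74 ± 0.07 in mesoderm and 4.54 ± 0.05 in crest (log2, SD, n = 3 each), at least 2.87-fold higher in mesoderm. Like Ppbp, it stood close to background in mesoderm, with its lowest mesoderm signal 1.25 times its highest crest signal. Treml1, for a receptor-like protein of the platelet alpha granule membrane (TLT-1; chromosome 17, 48359916 to 48367176, NM_027763), had signals of 1239, 1928 and 2106 in mesoderm, against 127.4, 134.4 and 109.9 in crest. It averaged 10.83 ± 0.40 in mesoderm and 4.84 ± 0.07 in crest (log2, SD, n = 3 each), at least 48.9-fold higher in mesoderm.

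Tubb1 encodes beta-1 tubulin, which forms the microtubule coil that gives platelets their disc shape (chromosome 2, 174450595 to 174458380). Its brightest probe had signals of 928.1, 1317 and 1561 in mesoderm, against 102.4, 112.4 and 101.7 in crest, and was at least 35.0-fold higher in mesoderm. Neither of the other Tubb1 probes, both listed for NM_001080971, showed this difference. The first of them read 114.1, 138.2 and 112.1 in mesoderm, against 135.1, 132.1 and 111.8 in crest, and the second read 96.9, 133.4 and 105.3 in mesoderm, against 122.2, 127.0 and 104.7 in crest. On both, the groups overlapped, and the log2 differences were 0.16 and -0.03. The deposited detection p-values of each fitted the other's signals rather than its own. The brightest probe had no accession in the probe table, so its place in the transcript relative to the others was not analysed here.

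Vwf, which encodes von Willebrand factor, is made by megakaryocytes and also by endothelial cells (chromosome 6, 125552948 to 125686679). Its detected probe (NM_011708) had signals of 513.7, 518.2 and 741.8 in mesoderm, against 120.6, 135.7 and 109.0 in crest. It averaged 9.15 ± 0.81 in mesoderm and 4.79 ± 0.07 in crest (log2, SD, n = 3 each), at least 15.2-fold higher in mesoderm. A second Vwf probe, listed for AK044921, was detected on no array and had a log2 difference of -0.07.

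**Figure D2:**
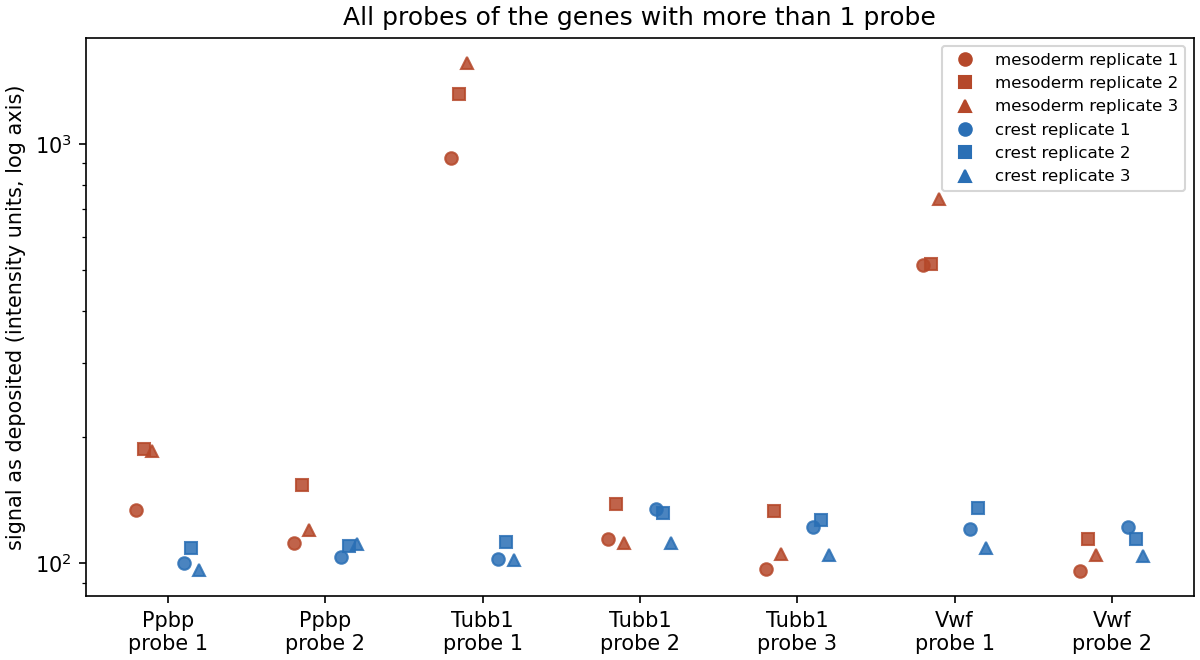
Deposited signal (vertical log axis, intensity units) of every probe of the 3 genes with more than 1 probe, with probe 1 the one used for the gene, mesoderm arrays in red left of crest arrays in blue, and marker shapes for replicates. Probe 1 of Tubb1 and of Vwf stand apart between the groups, while the other probes of these genes lie at background on all or nearly all arrays.

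The fitted log2 differences, which rest on crest values at background and on the contrast that chose the genes, were 7.86 for Pf4, 5.99 for Treml1, 5.85 for Tubb1, 5.80 for Gp5, 5.37 for Gp9, 4.86 for Gp1bb, 4.36 for Vwf, 2.21 for Gp6 and 1.94 for Ppbp. Since each gene was read by its own probe, their order is not an order of RNA amounts. Without background correction, as in the authors' normalized values, the differences were smaller, at 5.69 for Pf4, 0.87 for Ppbp and 3.48 for the median gene. Detection did not depend on this step.

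The platelet and megakaryocyte genes varied together over the mesoderm arrays. After quantile normalization, 8 of the 9 were highest on mesoderm replicate 3 and 8 were lowest on replicate 2, Gp6 being the exception on both. These were also the most frequent places over all genes, 3275 of 7790 being highest on replicate 3 and 2995 lowest on replicate 2. Their median deviations from each gene's mesoderm mean were 0.14, -0.54 and 0.38 on replicates 1 to 3. The place of replicate 2 depended on the scaling. With arrays set to a common median in its place, 8 genes were again highest on replicate 3, but 6 were lowest on replicate 1 and 3 on replicate 2. In the deposited signals all 9 were lowest on replicate 1 and 7 were highest on replicate 3.

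Other lists were read over these arrays in the same way. Red cell genes had median deviations of 0.20, -0.36 and 0.22 on replicates 1 to 3 after quantile normalization, and endothelial genes 0.24, -0.24 and 0.03. Macrophage and white cell genes had -0.00, -0.23 and 0.26. Head mesoderm genes went the other way, at -0.38, 0.24 and -0.08. Median scaling gave -0.27, -0.18 and 0.45 for the platelet and megakaryocyte genes, -0.06, -0.25 and 0.25 for red cell genes, -0.16, 0.02 and 0.12 for endothelial genes, -0.28, 0.14 and 0.23 for macrophage and white cell genes, and -0.79, 0.64 and -0.08 for head mesoderm genes. With 3 arrays this is a description, and its cause was not tested.

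**Figure D3:**
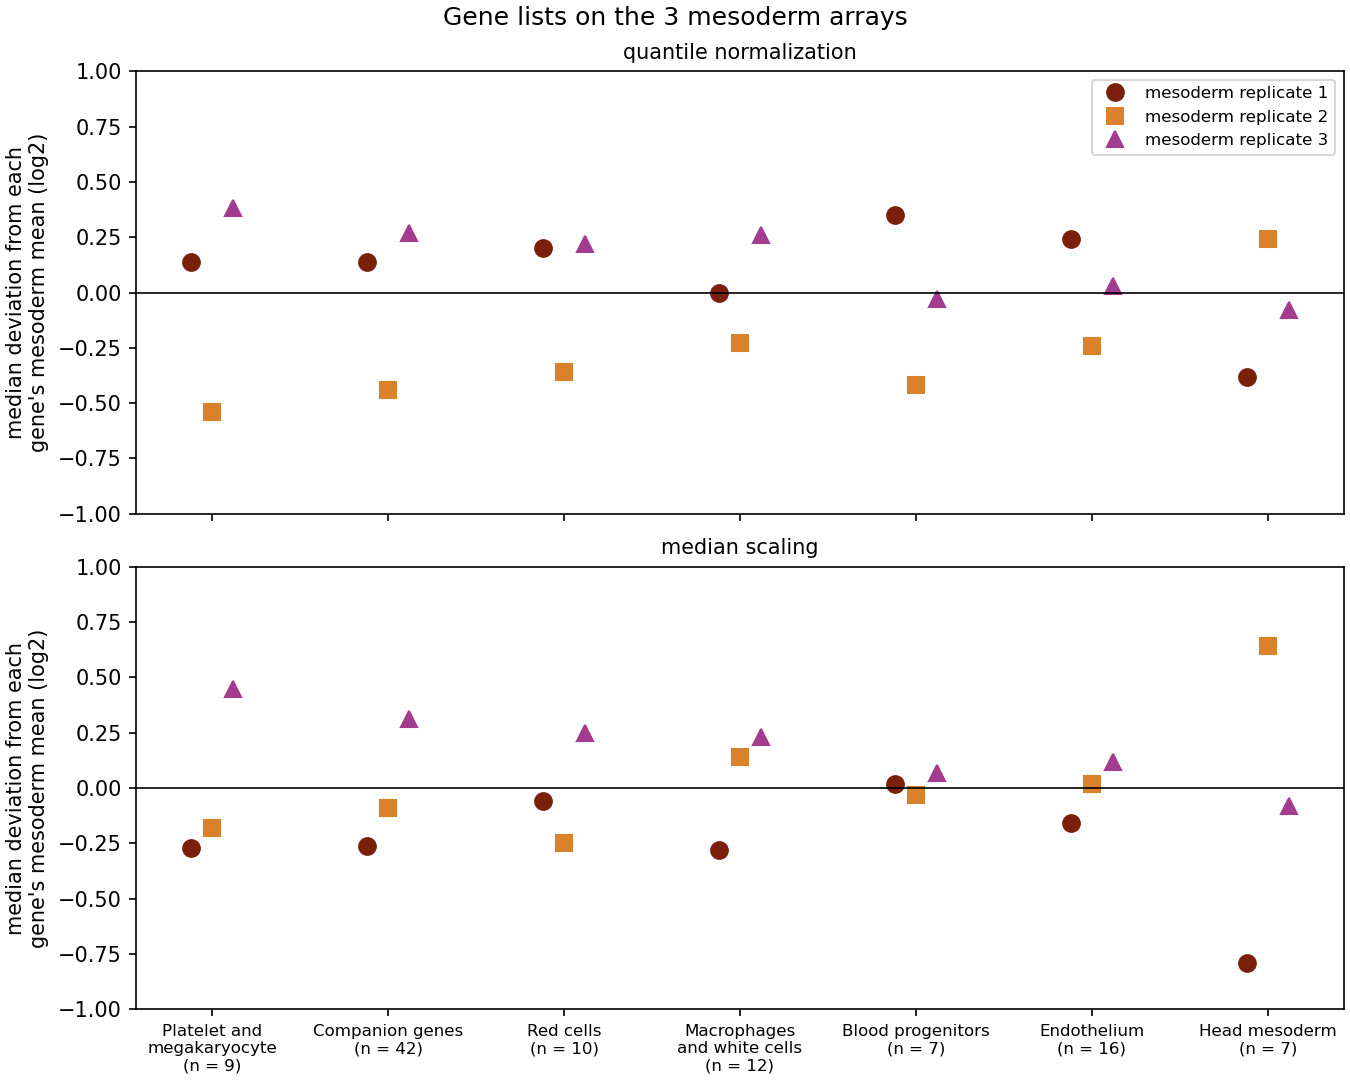
Median deviation of each gene list from its genes' mesoderm means (vertical axis, log2) on the 3 mesoderm arrays, after quantile normalization (top) and after median scaling (bottom), with n the number of genes detected on all 3. Replicate 3 is highest for the platelet and megakaryocyte genes in both panels, while replicate 2 is lowest only in the top one.

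A longer list of 68 other genes of megakaryocytes and platelets was read from the fit over all genes. It held 62 genes with a probe and none of the 10 above. Of these, 20 did not pass the detection filter and 42 were tested. 30 of the 42 (71.4%) were higher in mesoderm and 0 were lower at an adjusted p under 0.05 (limma). At an unadjusted p under 0.05 there were 31 higher and 0 lower, against 1445 and 1552 of the 9214 genes tested. The median difference over the 42 was 2.31 on the log2 scale, or 1.96 with undetected groups at their bound, against -0.07 over all genes.

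The filter shaped these counts and this median alike. No crest array detected 22 of the 42, against 288 of the 9214 genes tested. All 22 were called higher, but so were 91.7% of all genes tested that no crest array detected. All 3 crest arrays detected 14 of the 42, and 3 of these were higher (Cd9, Rap1b and Unc13d), against 6.67% of all such genes. The rest of the 14 had log2 differences from -0.57 (Plcg2) to 0.43 (Myh9). Of the 6 genes that 1 or 2 crest arrays detected, 5 were higher, against 16.6% of all such genes. The counts and adjusted p given by role below carry the same limit, and 10.1% of all genes tested were higher.

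Among transcription regulators, 3 of 8 tested were higher in mesoderm. Nfe2, which drives the last steps of platelet formation, had signals of 517.0, 620.2 and 914.8 in mesoderm, against 117.8, 117.3 and 104.0 in crest. Its log2 difference was 4.74 ± 0.35 (SE; adjusted p = 3.72e-05), at least 17.7-fold higher. Gfi1b, a repressor needed in megakaryocytes and red cells, differed by 4.46 ± 0.29 (SE; adjusted p = 2.1e-05). Tal1, a factor of the earliest blood and vessel precursors, differed by 4.27 ± 0.24 (SE; adjusted p = 9.49e-06). Etv6, Meis1, Srf, Mafg and Rbm15 were detected in both groups and had differences from -0.31 to 0.25, none past the threshold. The mean of its probes gave -0.69 for Meis1, also not past it. Gata1, Fli1, Runx1, Mafk and Mrtfa did not pass the filter. The probe of Gata1 was detected on 1 mesoderm array and on no crest array, with signals of 113.1, 135.0 and 117.7 in mesoderm, against 117.8, 127.8 and 105.6 in crest, so the level of this central factor was not measured here.

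Surface receptors were higher in mesoderm for 8 of 9 tested. F2rl3, the thrombin receptor PAR4, had signals of 865.0, 1621 and 1361 in mesoderm, against 116.7, 126.0 and 99 in crest. Its difference was 5.74 ± 0.22 (log2, SE; adjusted p = 2.2e-06), at least 35.3-fold higher. Itga2b, the alpha chain of the platelet fibrinogen receptor, had signals of 1057, 1371 and 1568 in mesoderm, against 118.2, 127.9 and 113.2 in crest, and was at least 37.1-fold higher (adjusted p = 5.61e-06). Its deposited detection p departed from that of probes with like signal, and the mean of its probes gave a log2 difference of 3.63 in place of 5.67. The ADP receptor gene P2ry1 differed by 3.62 ± 0.27 (SE), and Clec1b, which encodes the podoplanin receptor CLEC-2, by 3.36 ± 0.29 (SE). Clec1b rested on a probe whose deposited detection p departed from that of probes with like signal, and with the deposited p in the filter another probe stood for it, at 0.10 (adjusted p = 0.702). The ATP channel gene P2rx1 and F2rl2, the thrombin receptor PAR3, each differed by 3.30, with SEs of 0.58 and 0.27. The thromboxane receptor gene Tbxa2r differed by 2.23 ± 0.22 (SE; adjusted p = 0.000179). Cd9, a tetraspanin that many cell types express, differed by 1.64 ± 0.38 (SE; adjusted p = 0.0173). Its signals of 269.7, 874.7 and 285.9 in mesoderm overlapped those of 187.9, 362.0 and 190.5 in crest before normalization. Trpc6 did not pass (0.88 ± 0.33, SE; adjusted p = 0.104). Itgb3, the partner chain of Itga2b, was detected on no array, and Itga2, P2ry12, Ptger3, Cd226 and Selp did not pass the filter.

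Signalling and cytoskeletal genes were higher in mesoderm for 9 of 12 tested. Arhgdib, a gene expressed widely in blood cells, had signals of 687.7, 3094 and 824.1 in mesoderm, against 139.6, 159.3 and 120.0 in crest, and a difference of 5.09 ± 0.34 (log2, SE; adjusted p = 2.3e-05). Fcer1g, the Fc receptor gamma chain through which GPVI signals, had signals of 495.3, 626.4 and 561.4 in mesoderm, against 132.8, 126.2 and 109.2 in crest, at least 14.7-fold higher in mesoderm. Macrophages and mast cells also use this chain. The actin regulator gene Was differed by 4.01 ± 0.31 and Mrvi1, a substrate of cGMP signalling in platelets, by 3.94 ± 0.35 (log2, SE). Plek, the pleckstrin gene, differed by 3.15 ± 0.38, the G protein subunit gene Gng11 by 3.06 ± 0.32, and the adaptor gene Lat by 2.37 ± 0.39 (log2, SE). Fermt3, the kindlin of blood cells, differed by 1.58 ± 0.28 (SE; adjusted p = 0.00484). Rap1b, a small GTPase of integrin activation that many cells express, differed by 0.74 ± 0.21 (SE; adjusted p = 0.0427). Its signals were high in both groups, at 4043, 6641 and 6007 in mesoderm, against 4518, 4917 and 2886 in crest. Myh9, Flna and Plcg2 ran from -0.57 to 0.43 and did not pass the threshold, and Rasgrp2, Syk, Lcp2 and Tln1 did not pass the filter.

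Granule and secreted genes were higher in mesoderm for 10 of 13 tested. Alox12, the platelet 12-lipoxygenase, had signals of 494.0, 762.4 and 1058 in mesoderm, against 109.9, 111.3 and 101.8 in crest, which gave a bound of at least 19.9-fold (adjusted p = 1.65e-05). Its deposited detection p departed from that of probes with like signal either, and with the deposited p in the filter another Alox12 probe gave -0.04 (adjusted p = 0.884). Pdgfb, a growth factor gene of platelets and endothelium, had signals of 423.2, 968.9 and 811.7 in mesoderm, against 118.6, 113.1 and 112.2 in crest, at least 18.7-fold higher (adjusted p = 5.5e-06). Alox5ap, the 5-lipoxygenase activating protein gene of several blood cells, differed by 4.27 ± 0.23 (log2, SE). Mmrn1, which encodes the factor V carrier multimerin, differed by 2.55 ± 0.31 (SE), and Cavin2, a caveola gene, by 2.45 ± 0.36 (SE). Unc13d, a gene of granule release, differed by 2.25 ± 0.45 (SE), and F13a1, the factor XIII A chain gene, by 1.84 ± 0.42 (SE; adjusted p = 0.0167). Stx11 (1.63), Tgfb1 (1.53) and the thromboxane synthase gene Tbxas1 (1.01; adjusted p = 0.0386) had the smallest differences past the threshold. Stxbp2, Vps33b and Rab38 lay from -0.13 to 0.26, and F5, Thbs1, Srgn, Rab27b and Itgb1bp2 did not pass the filter.

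Several calls depended on single arrays and on the processing. Without 1 of the arrays at a time, and with the filter eased to 2 arrays so that genes seen in mesoderm alone could still be tested, between 26 and 31 of the longer list were called higher and 0 lower. With the filter kept at 3 arrays, leaving out mesoderm replicate 1, 2 or 3 left 4, 8 and 6 calls, since most of these genes then no longer entered the test. Rap1b, Cd9 and Tbxas1 each lost their call without mesoderm replicate 1, without crest replicate 1 or without crest replicate 3. All 3 also lost it under median scaling, at adjusted p of 0.245, 0.0883 and 0.101 in that order. Tbxas1 lost it under 17 of 23 alternatives, among them no background correction (adjusted p = 0.122), an offset of 50 (adjusted p = 0.0761) and the deposited p in the filter (adjusted p = 0.843). F13a1 lost its call under 6 alternatives, among them those without crest replicate 3, and Unc13d lost its call without mesoderm replicate 1. Without the detection filter, Cd9, F13a1, Unc13d, Tbxas1 and P2rx1 were not called.

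**Figure D4:**
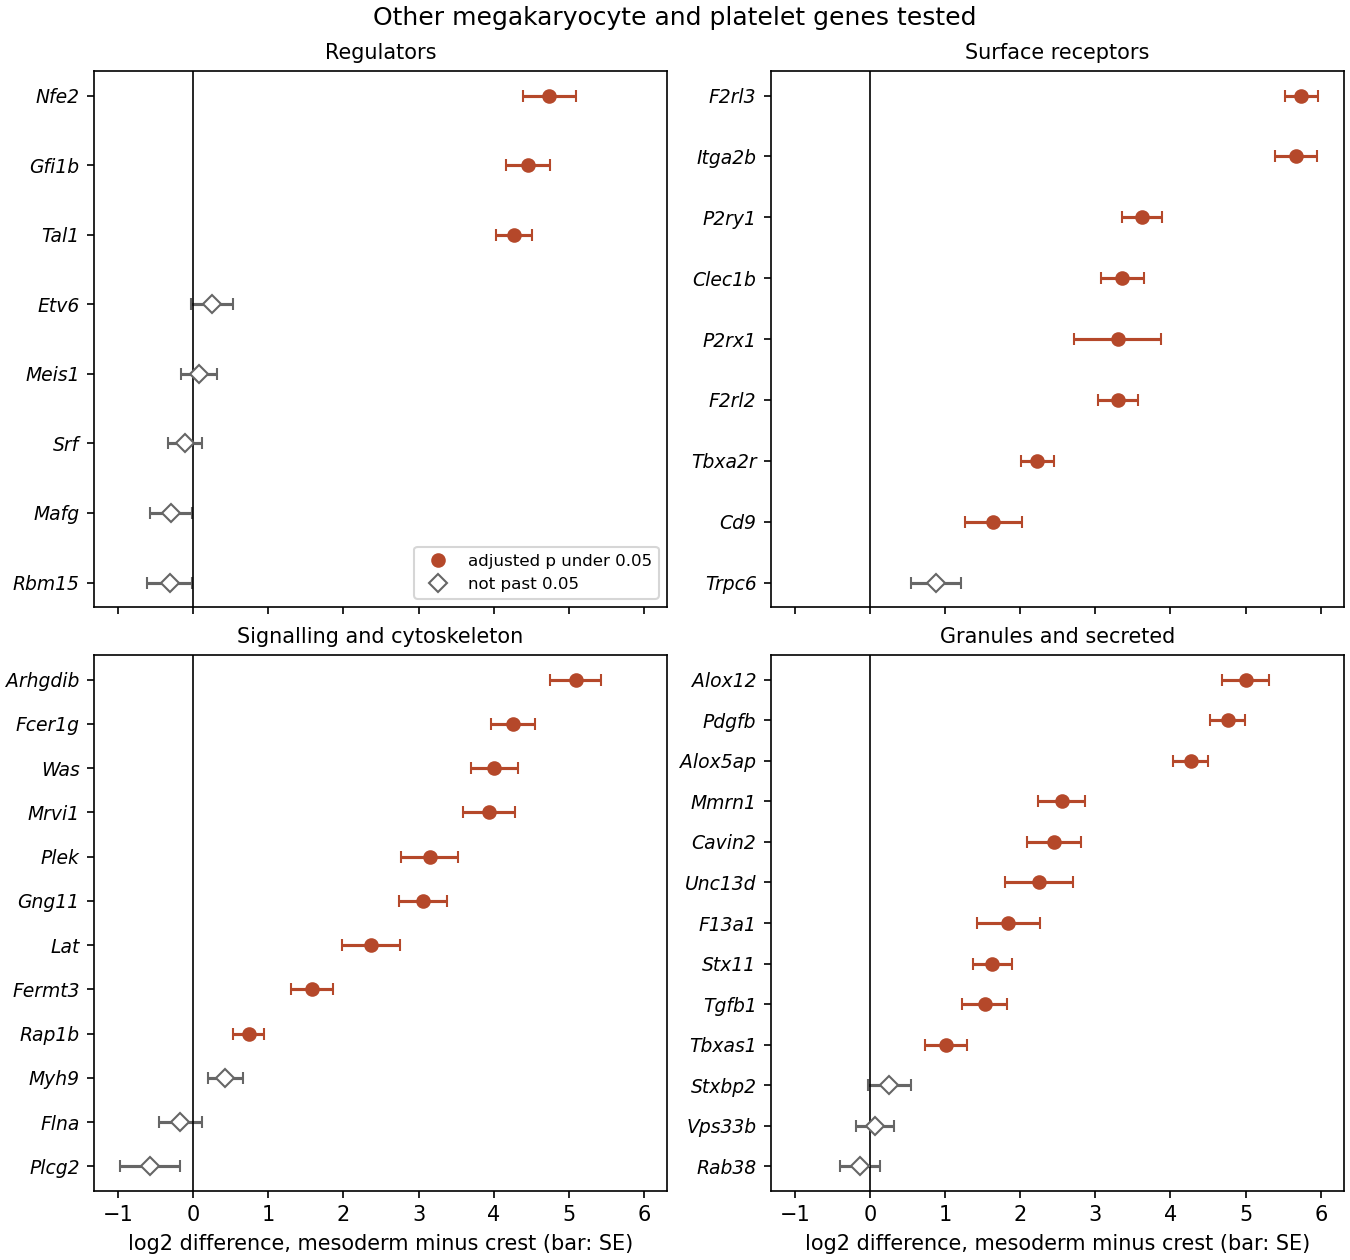
Log2 difference, mesoderm minus crest, with its SE (horizontal axis) for the 42 genes tested of the longer list, in 4 panels by role. Filled circles passed an adjusted p of 0.05 and open diamonds did not. All 30 filled circles lie right of 0.

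Genes of other blood cells were read on the same arrays. The summed background-corrected intensity of the platelet and megakaryocyte genes was 13608, 8667 and 15990 in mesoderm, against 85.2, 84.5 and 79.2 in crest. Pf4 contributed the most to the mesoderm sums. These genes were chosen from this contrast and none was detected in crest, so nothing is read from this difference. Red cell genes summed to 19508, 15065 and 24356 in mesoderm, against 5327, 1560 and 3370 in crest. Tfrc, the transferrin receptor gene, made up most of the sum of crest replicate 2, and without it the sums were 19299, 14753 and 24252 in mesoderm, against 4722, 186.3 and 2617 in crest. Of 13 red cell genes with a probe, 11 were detected on each mesoderm array, against 9, 5 and 9 on the crest arrays. 6 of 11 tested were higher in mesoderm and 1, Tfrc, was lower, against 10.1% and 8.31% of all genes tested. The embryonic globin Hbb-bh1 had signals of 7926, 9523 and 11249 in mesoderm, against 3095, 165.6 and 1317 in crest. The globins Hbb-y, Hba-x and Hba-a1 were detected on crest replicates 1 and 3 and not on replicate 2. None of the 9 platelet and megakaryocyte genes, chosen from this contrast, was detected on any of these crest arrays.

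Macrophage and white cell genes summed to 12996, 8306 and 14641 in mesoderm, against 1689, 1814 and 1549 in crest. 11 of 12 tested were higher in mesoderm and 0 lower, against 10.1% higher and 8.31% lower over all genes tested. Every gene tested but Laptm5 was detected on no crest array. Of all genes tested that no crest array detected, 91.7% were called higher, so nothing is read from this count. On each crest array Laptm5 alone was detected among the 16 genes with a probe, and without it the sums were 4107, 2591 and 5726 in mesoderm, against 132.4, 140.1 and 136.7 in crest, while the defining markers Ptprc, Spi1 and Adgre1 were detected on no array of either group. Blood progenitor genes summed to 5336, 3386 and 4272 in mesoderm, against 352.4, 562.0 and 401.5 in crest, and 6 of 7 tested were higher. Endothelial genes summed to 56994, 44197 and 49755 in mesoderm, against 1968, 1481 and 2211 in crest, and 16 of 17 tested were higher, with Kdr the exception. Over all genes tested 10.1% were higher. No crest array detected the blood progenitor genes Lyl1, Cbfa2t3 and Ikzf1. The same held for the endothelial genes Pecam1, Emcn, Sox17, Sox18, Icam2 and Robo4, so the filter limits both counts too. Over the mesoderm arrays after quantile normalization, 8 of 12 macrophage and white cell genes were highest on replicate 3, as were most platelet and megakaryocyte genes. On replicate 1, by contrast, 11 of 16 endothelial and 5 of 7 blood progenitor genes were highest, and 3 and 1 under median scaling. The part of these lists in the levels of shared genes such as Vwf, Fcer1g and Pdgfb was not tested.

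**Figure D5:**
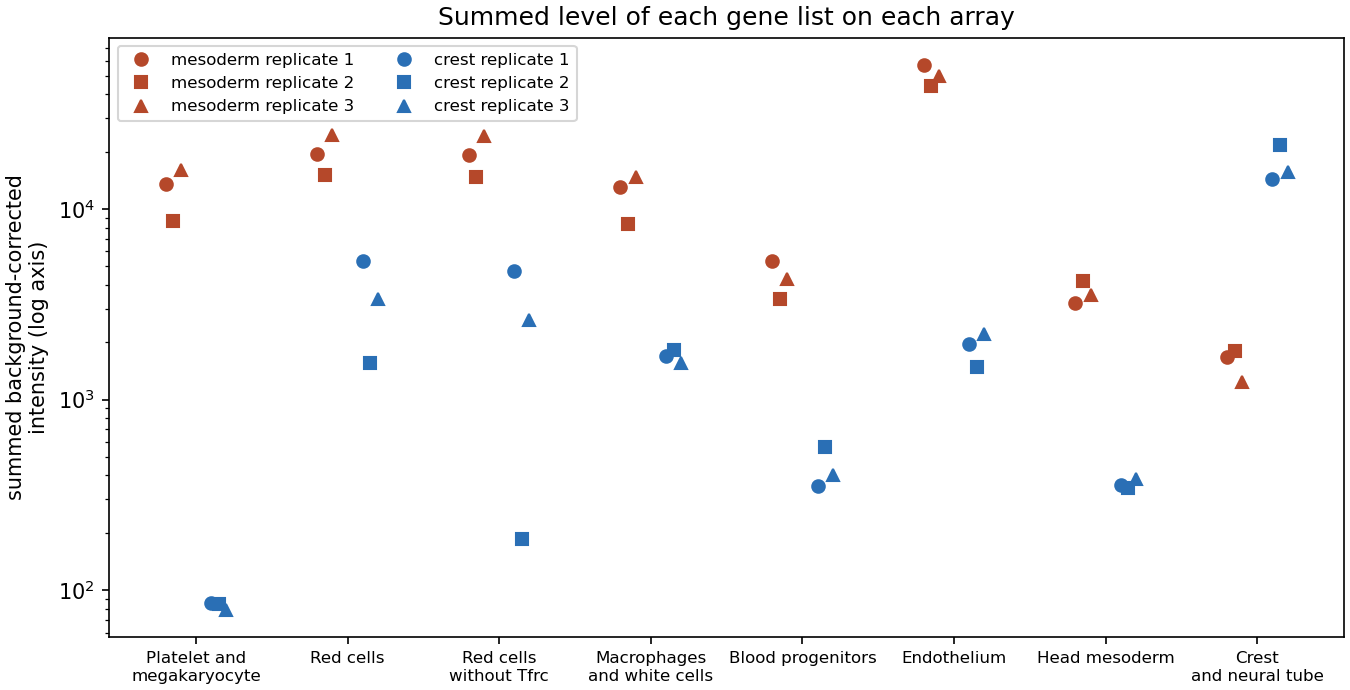
Summed background-corrected normalized intensity (vertical log axis) of each gene list on each array, mesoderm in red left of crest in blue, with marker shapes for replicates. In crest the platelet and megakaryocyte genes, chosen from this contrast and not detected there, lie between 79.2 and 85.2. The red cell genes without Tfrc lie at 4722, 186.3 and 2617 in crest. Sums of different lists rest on different probes and are not comparable in level.

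The tested genes nearest to Pf4 by Euclidean distance over the 6 normalized log2 values were Emcn (0.99), Esam (1.32), Aplnr (1.32), Icam2 (1.36) and Klhl6 (2.11). Emcn, Esam and Icam2 encode surface proteins of endothelium, and Aplnr the apelin receptor. Emcn read 12.12, 11.93 and 12.07 in mesoderm, against 4.83, 4.68 and 5.07 in crest, where Pf4 read 12.31, 11.97 and 12.71 in mesoderm, against 4.47, 4.47 and 4.49 in crest (log2). The measure takes in the level of each probe as well as its pattern, and none of the other 8 platelet and megakaryocyte genes was among these 5.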

How the data were processed

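Illumina mouse WG v2.0 arrays measured RNA from sorted cells of 3 mesoderm and 3 crest samples. The authors deposited 45281 probes with linear intensity values, neither background-subtracted nor scaled, and a detection p-value per probe. A second deposited table held log2 values, which followed quantile-normalized log2 signals within 0.00571, each array's median being 6.855. The summary software is not given in the sources used here.

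On 12273 lines (27.1%) the deposited detection p departed by over 0.06 from that of probes with like signal. It was therefore re-read as a running median over 101 probes ranked by signal. Of 5300 lines whose p was traced nearby, 4472 went to the same gene, and 29 that went to another gene were left out. Background was corrected by normexp with the re-read p (limma 3.58.1, R 4.3.3), with offset 16, quantile normalization and log2. The brightest kept probe stood for a gene (34885 probes had 1 symbol, 18 several, 10378 none). lmFit and eBayes compared mesoderm with crest over all 9214 genes, with Benjamini-Hochberg adjustment. The step was tested on simulated data.

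Residuals of same-numbered arrays correlated at 0.12, 0.32 and 0.02, so the numbers were not taken as pairs. The genes and lists were chosen with earlier results of these data known. Named were all members, the longer list up to 30 genes by size of difference within roles, those below the filter, and the 5 genes nearest Pf4. The 12 others of the longer list were named after their values were seen.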

Additional observations from a re-analysis of the deposited data

How the results depend on the processing

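With background correction left out, with the authors' deposited values or with an offset of 50, the median difference over the platelet and megakaryocyte genes was 3.48, 3.48 and 4.33 in place of 5.37, and leaving out 1 array at a time gave 5.19 to 5.68. With the deposited detection p throughout, added after seeing the data, it was 0.01. The 9 genes detected on every mesoderm and no crest array stayed 9 at a detection threshold of 0.01 and with the deposited detection p. The other alternatives kept the same detection p or left out 1 array, so nothing is read from them on this count. Genes higher and lower in mesoderm numbered 935 and 766; median scaling, which moved the median of all genes to -0.30, gave 595 and 729, and array weights 1470 lower. Leaving out 1 array at a time gave 433 to 762 higher, 241 to 734 lower, and 4 to 27 of the longer list higher in place of 30. With the filter then eased to 2 arrays it gave 630 to 1007 higher, 330 to 802 lower (426 without mesoderm replicate 1, 503 without crest replicate 2 and 330 without crest replicate 3) and 26 to 31 of the longer list. The deposited detection p, used throughout, gave 231 higher, 172 lower and 5 of the longer list, with array backgrounds fitted at 439.1 to 817.2 in place of 97.0 to 123.6. Used in the filter only, chosen after seeing the data like the easing of the filter to 2 arrays, it gave 741, 587 and 27. Another probe then stood for Alox12, at -0.04, for Clec1b, at 0.10, and for Ppbp, at 0.69 in place of 1.94. The replicate block gave 1046 higher, 937 lower and 29 of the longer list, Rap1b losing its call. The other alternatives gave 25 to 31 of the longer list higher; 0 were lower throughout. Signal over background limits Ppbp and Gp6 most.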
